A study of Mus musculus with 9 samples.

Results

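Messenger RNA levels of 10 genes that mark GABAergic interneurons were compared between the brains of young and old mice. The genes were taken by name from the table of raw counts, in which they are 10 of 49315 rows, and comprise Gad1, Gad2, Slc32a1, Pvalb, Calb1, Calb2, Reln, Lhx6, Lamp5 and Erbb4. The study, which follows protein modification in the aging brain, sequenced polyA-selected RNA of male wild-type C57BL/6J mice. The tissue is labelled as brain, so every cell type of every dissected region contributes. The values given here come from 5 young mice (3 months in the labels, 3 or 4 months in the methods) and 4 old mice (33 months), numbered as in the labels, in which the old mice are replicates 1, 3, 4 and 5. The labels give no treatment, transgene or allele other than wild type for either age.

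GABAergic neurons are the main inhibitory neurons of the brain. They make GABA from glutamate with glutamate decarboxylases, load it into vesicles and release it onto receptors that dampen the target cell, and cortical interneurons divide into subclasses named for the calcium-binding proteins and peptides they carry. None of the 10 genes is restricted to these cells. Purkinje cells of the cerebellum, spiny neurons of the striatum and granule and periglomerular cells of the olfactory bulb are GABAergic too, parvalbumin and calbindin are abundant in Purkinje cells, and calretinin and reelin are made by glutamatergic granule cells of the cerebellum.

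The libraries held 14229259 to 21150439 counts each, and 18492 genes passed the filter on low counts, all 10 members among them. The weakest member, Lhx6, had 170 to 363 counts per library, and the most abundant in counts, Gad1, had 5390 to 10537. Levels are given as CPM, the counts scaled to a common library total after TMM normalization, which allows a gene to be compared between mice. Rbfox3, a neuronal nuclear protein, was present in every library, as was Snap25 of the synapse (1857 to 2139 CPM). So was Slc17a7, a vesicular glutamate transporter of forebrain neurons and of cerebellar granule cells.

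Of the 10 genes, Calb1 and Lamp5 were lower in old mice at an adjusted p under 0.05 (edgeR's quasi-likelihood test, Benjamini-Hochberg adjustment over all genes tested), and none was higher. Among all genes tested, 11.0% passed this threshold, 4.83% lower and 6.20% higher in old mice. The median log2 fold change of the members, old minus young, was -0.10, beside -9.2e-05 over all genes, and 6 of the 10 were negative. At the study's additional threshold of an absolute log2 fold change over 0.58, edgeR called 0 members, beside 2.68% of all genes, while 4 members had an unadjusted p under 0.05, beside 26.0% of all genes, and DESeq2's Wald test called 2 at the adjusted threshold alone. Both calls depended on how the spread was estimated, and with edgeR's robust estimation the adjusted p was 0.055 for Calb1 and 0.070 for Lamp5, so that 0 members passed. In whole tissue, fewer cells of a type and less RNA per cell cannot be told apart.

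**Figure D1:**
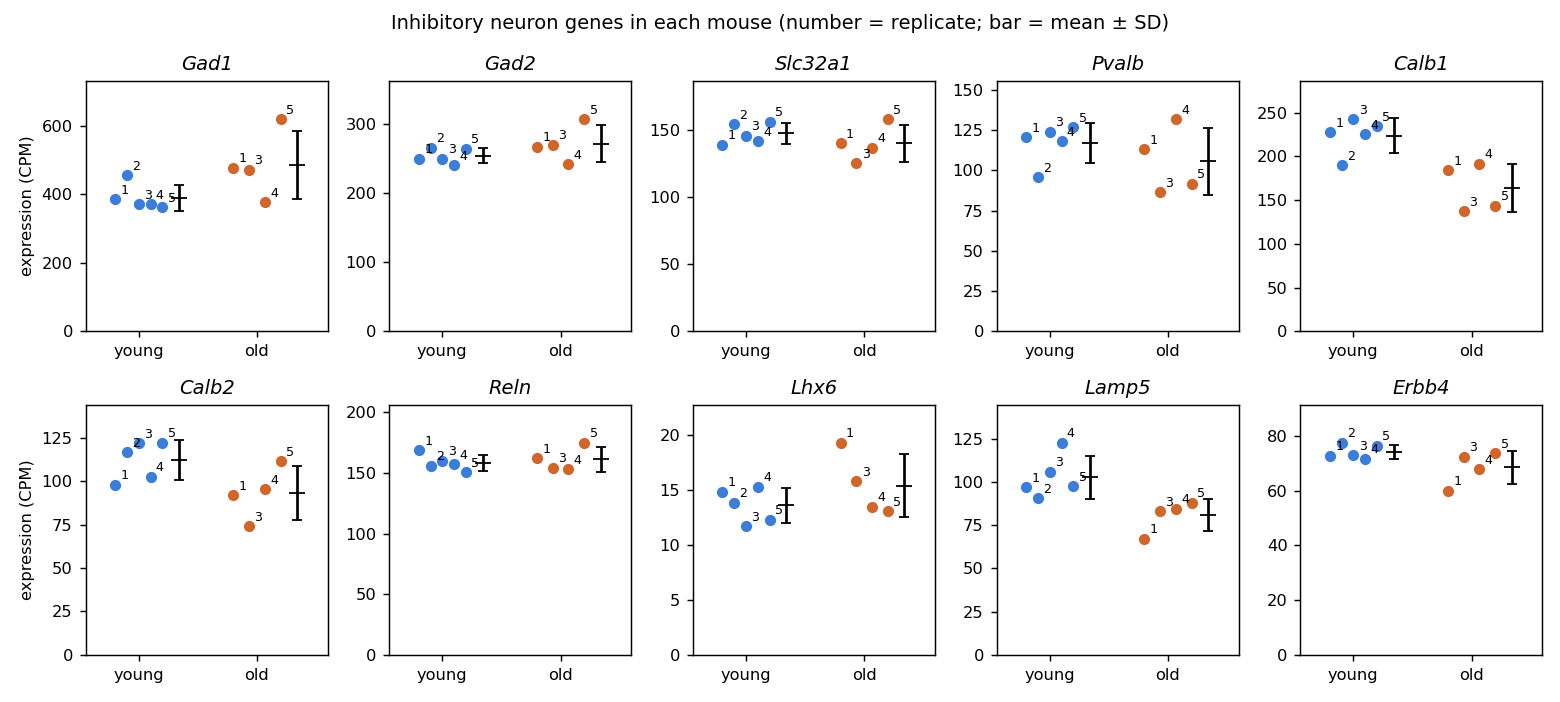
Expression of the 10 genes in each mouse, in CPM on linear axes that start at 0. Points are single mice (5 young in blue, 4 old in orange) with the replicate number beside them, and the bar gives the mean ± SD of each age. The 4 old mice lie below the 5 young mice for Lamp5, while for each other gene the ages overlap.

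Calb1 encodes calbindin, a calcium buffer of several interneuron subclasses, of Purkinje cells and of striatal and hippocampal principal neurons. It lies on chromosome 4 (GRCm38, chr4:15881264-15908064, plus strand). Its level was 227, 189.9, 243, 225 and 234 CPM in young replicates 1 to 5 and 184, 137, 191 and 144 CPM in old replicates 1, 3, 4 and 5. The ages overlapped through young replicate 2, the lowest young mouse, which lay just below old replicate 4, the highest old mouse. The mean fell from 224 ± 20.2 (SD, n = 5) to 164 ± 27.7 CPM (n = 4), a log2 fold change of -0.45 (SE 0.09, 95% interval -0.65 to -0.24, edgeR adjusted p = 0.0088). On the linear scale the fitted change was -26.6%.

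Lamp5 encodes a membrane protein of neuronal vesicles that marks a neurogliaform-like class of cortical interneurons and is also made by some excitatory neurons. It lies on chromosome 2 (GRCm38, chr2:136052239-136069917, plus strand). Its level was 97.0, 90.6, 106, 123 and 97.5 CPM in the young mice and 67.1, 83.2, 84.6 and 88.0 CPM in the old mice. Every old mouse lay below every young mouse, with old replicate 1 the lowest and young replicate 4 the highest. Lamp5 was the 1 member without overlap between the ages, beside 12.6% of all genes tested, 6.08% with the old mice lower and 6.50% with the old mice higher. The mean went from 103 ± 12.4 to 80.7 ± 9.30 CPM, a log2 fold change of -0.35 (SE 0.09, 95% interval -0.54 to -0.16, edgeR adjusted p = 0.020). Without old replicate 1 the log2 fold change of Lamp5 was -0.27 and the edgeR adjusted p was 0.054, so the call rested on that mouse.

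The enzymes and the transporter that make and pack GABA did not pass the test. Gad1 encodes GAD67, the decarboxylase that makes most of the GABA of the cell body. Its level was 386, 455, 370.4, 371 and 362 CPM in the young mice and 477, 471, 376 and 618 CPM in the old mice. Old replicate 5 stood highest by far and young replicate 2 was the highest of the young, while old replicate 4 lay among the other young mice. The log2 fold change of Gad1 was 0.32 (SE 0.11, 95% interval 0.09 to 0.55), with an edgeR adjusted p of 0.071 (unadjusted p = 0.0098). The adjusted p was 0.038 without young replicate 2 and 0.010 without old replicate 4, with log2 fold changes of 0.39 and 0.43. Each of these libraries thus decided on which side of the threshold Gad1 fell.

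Gad2 encodes GAD65, the decarboxylase of axon terminals. Its level ranged from 240.4 to 266 CPM in young mice, with a median of 249.7, and was 267, 269.8, 242 and 307 CPM in old mice, where old replicate 5 was again the highest. The log2 fold change was 0.10 (95% interval -0.03 to 0.22, edgeR adjusted p = 0.32). Slc32a1 encodes VGAT, which fills synaptic vesicles with GABA or glycine. It lay between 139 and 156 CPM in young mice and was 139.8, 125, 136 and 158 CPM in old mice, with a log2 fold change of -0.07 (95% interval -0.20 to 0.05, edgeR adjusted p = 0.47). The intervals of both genes leave room for differences of the size of their upper and lower limits. The exons of Slc32a1 overlap those of Gm14205 on the opposite strand over 697 bases, and its counts may hold reads of that gene.

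Pvalb encodes parvalbumin, the calcium buffer of fast-spiking basket and chandelier cells. It was 120.5, 95.8, 124, 118 and 127 CPM in the young mice and 113, 86.5, 132 and 91.8 CPM in the old mice. Young replicate 2 and old replicates 3 and 5 were low, and the highest mouse of all was an old one, replicate 4. The log2 fold change was -0.14 (95% interval -0.37 to 0.09, edgeR adjusted p = 0.45). Calb2 encodes calretinin, found in vasoactive peptide interneurons, in the olfactory bulb and in the cerebellar granule layer. It was 97.8, 117, 122, 102 and 122 CPM in the young mice and 91.7, 74.0, 95.4 and 112 CPM in the old mice. Of the old mice, 3 lay below every young mouse and old replicate 5 lay within the young range. The log2 fold change of Calb2 was -0.26 (95% interval -0.47 to -0.06), with an edgeR adjusted p of 0.097, and it was -0.36 without old replicate 5 (adjusted p = 0.026), so this mouse decided the call.

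Lhx6 is the homeodomain factor of interneurons born in the medial ganglionic eminence, which become parvalbumin and somatostatin cells. It was 14.8, 13.8, 11.7, 15.3 and 12.3 CPM in the young mice and 19.3, 15.8, 13.5 and 13.1 CPM in the old mice. Its 2 highest values came from old mice, and the other 2 old mice lay within the young range (log2 fold change 0.18, 95% interval -0.07 to 0.42, edgeR adjusted p = 0.37). Reln encodes the secreted protein reelin, which Cajal-Retzius cells and many adult interneurons release. It lay between 151 and 169 CPM in the young and between 153 and 175 CPM in the old mice (log2 fold change 0.02, 95% interval -0.07 to 0.12, edgeR adjusted p = 0.80), the narrowest interval of the 10 genes. Erbb4 encodes the neuregulin receptor of parvalbumin and other interneurons. It was 71.7 to 77.5 CPM in young mice and 60.1, 72.5, 67.8 and 73.7 CPM in old mice, where old replicate 1 was the lowest of all (log2 fold change -0.12, 95% interval -0.24 to 0.00, edgeR adjusted p = 0.19). Reln shares 246 exonic bases with Gm10475 on the opposite strand, and Lhx6 shares 104 with Gm27953 on its own strand.

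Levels of different genes can be compared only per length, for which the deposited TPM values were used. By TPM, Pvalb was the highest member in all 9 libraries (170 to 406 TPM). Behind it Calb2, Gad1, Slc32a1, Gad2 and Calb1 changed places between mice, Calb2 and Gad1 ranging from rank 2 to rank 5 and Calb1 from rank 4 to rank 7. Lamp5 held rank 6 or 7. Reln, Erbb4 and Lhx6 held ranks 8, 9 and 10 in every library, with medians of 16.8, 13.9 and 6.96 TPM. The gene lengths behind these values are not given in the sources used here.

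The upstream sequence of 3 members is shown, of Lamp5 as a gene that passed the test, of Pvalb as the highest per length and of Reln as a member that held one of the motifs searched. The sequences are from the RefSeq promoter table (GRCm38.p6), in which 8 of the 10 genes were matched, and each runs 5′ to 3′ up to the base before the annotated gene start. Capitals mark the E-box CACGTG.
Lamp5 (chr2:136052089-136052238, plus strand): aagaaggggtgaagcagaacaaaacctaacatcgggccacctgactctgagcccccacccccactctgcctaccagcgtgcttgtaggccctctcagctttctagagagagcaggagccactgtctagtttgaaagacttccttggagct
Pvalb (chr15:78206401-78206650, minus strand): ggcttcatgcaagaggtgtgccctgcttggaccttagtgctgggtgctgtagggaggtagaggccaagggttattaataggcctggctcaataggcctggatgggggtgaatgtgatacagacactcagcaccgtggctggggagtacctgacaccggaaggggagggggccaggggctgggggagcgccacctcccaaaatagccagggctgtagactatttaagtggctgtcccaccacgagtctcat
Reln (chr5:22344703-22344955, minus strand): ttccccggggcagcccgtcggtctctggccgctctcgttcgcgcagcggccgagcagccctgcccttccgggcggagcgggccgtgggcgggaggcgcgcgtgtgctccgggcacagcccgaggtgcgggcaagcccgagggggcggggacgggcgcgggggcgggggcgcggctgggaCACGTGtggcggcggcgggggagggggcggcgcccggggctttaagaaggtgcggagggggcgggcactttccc

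The motifs searched on both strands were TAATTA, a core bound by homeodomain factors such as those of the Dlx and Lhx families, TGACGTCA, the cyclic AMP response element, TATAAA and CACGTG, none of which contains another. Over full windows of 300 bases, of which the 8 matched genes have 12, 0 held TAATTA and none held TGACGTCA, 2 held TATAAA and 1 held CACGTG. Of all 32851 windows, 5.29% held TAATTA, 1.79% TGACGTCA, 13.6% TATAAA and 7.15% CACGTG. The absence of a motif says only that these letters are not in this window.

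Some members varied together within an age. After the mean of each age was subtracted, Pvalb and Calb1 had a Pearson r of 0.97 over 9 mice, Gad1 and Gad2 one of 0.89, and Slc32a1 and Calb2 one of 0.91. Slc32a1 also varied with Gad2 (0.70) and Gad1 (0.57), and Reln with Gad1 (0.64). Gad1 ran against Pvalb (-0.79) and Calb1 (-0.73). Lamp5 ranged from -0.39 with Lhx6 to 0.35 with Erbb4. These values are descriptions and carry no test, and all genes of a library share the depth and dissection of that library.

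The listed genes most like each member were sought among 188 candidates by the same measure. For Calb1 they included Rgs8 (r = 0.98), a regulator of G protein signalling in Purkinje cells, and the homeodomain factor Lhx1 (0.98). For Pvalb they were Car8 (0.99), a carbonic anhydrase-related protein of Purkinje cells, then Calb1 (0.97) and Rgs8 (0.97). For Gad1 they were the olfactory bulb marker Tshz1 (0.99) and the factors Dlx5 (0.98) and Dlx2 (0.98), and for Gad2 Eno2 (0.93), Tshz1 (0.93) and Sp9 (0.92). Slc32a1 was most like Calb2 (0.91), Eomes (0.85) and Pthlh (0.76), and Calb2 like Slc32a1, Nr2f2 (0.90) and Pthlh (0.81). The remaining members had Camk2a (0.93), Pde10a (0.92) and Gabra4 (0.91) as neighbours of Lhx6, Nefm (0.78), Cx3cr1 (0.74) and Nefh (0.73) of Lamp5, P2ry12 (0.83), Nrg2 (0.76) and Cux2 (0.67) of Reln, and Slc6a13 (0.90), Nrg1 (0.85) and Crh (0.85) of Erbb4.

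Summed markers of the olfactory bulb and of Purkinje cells were therefore set beside the members. The 10 olfactory bulb markers summed to 224, 339, 217, 212 and 229 CPM in the young mice and to 292, 327, 207 and 532 CPM in the old mice. Young replicate 2 and old replicates 1, 3 and 5 were high, the mice in which Gad1 was high, and old replicate 4 had the lowest sum. Of these markers 8 had a positive and 2 a negative log2 fold change (median 0.49), and the 1 that passed the test, Lhx5, was lower (-0.62, adjusted p = 0.035). Lhx5 was also listed as a marker of Cajal-Retzius cells. Its lowest level, 3.23 CPM, was in old replicate 5, where the bulb sum was highest. Tbx21, a defining factor of mitral and tufted cells, was at 0 in young replicate 1 and highest in old replicate 5 (4.34 CPM). With the mean log2 CPM of this list as a covariate, the log2 fold change of Gad1 was 0.12 (edgeR adjusted p = 0.19), of Calb1 -0.32 (0.014), of Calb2 -0.33 (0.046) and of Lamp5 -0.32 (0.056).

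The 8 Purkinje cell markers, which do not include Calb1 or Pvalb, summed to 1888, 1465, 1896, 1832 and 1829.5 CPM in the young mice and to 1569, 1209.8, 1621 and 1203 CPM in the old mice. All 8 were detected in every library, and all 8 had a negative log2 fold change, with a median of -0.38. Of these, 3 passed the test, Car8 (-0.74, adjusted p = 0.0090) and Rgs8 (-0.48, 0.012) among them, and 6 had an unadjusted p under 0.05. In edgeR's robust fit 0 of the 8 passed. Young replicate 2 was the lowest young mouse in this sum as it was in Calb1 and Pvalb, and old replicates 3 and 5 were the lowest old mice in all 3. With the Purkinje markers as a covariate, a fit chosen after these values were seen, the log2 fold change of Calb1 was -0.15 (edgeR adjusted p = 0.052), beside -0.45 without them. That of Pvalb turned to 0.19 (0.043), past the threshold in the opposite direction, and that of Lamp5 was -0.37 (0.085). Since the markers themselves differ with age, the covariate and age overlap in this fit. The region markers' part in the results was not tested beyond these fits.

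**Figure D2:**
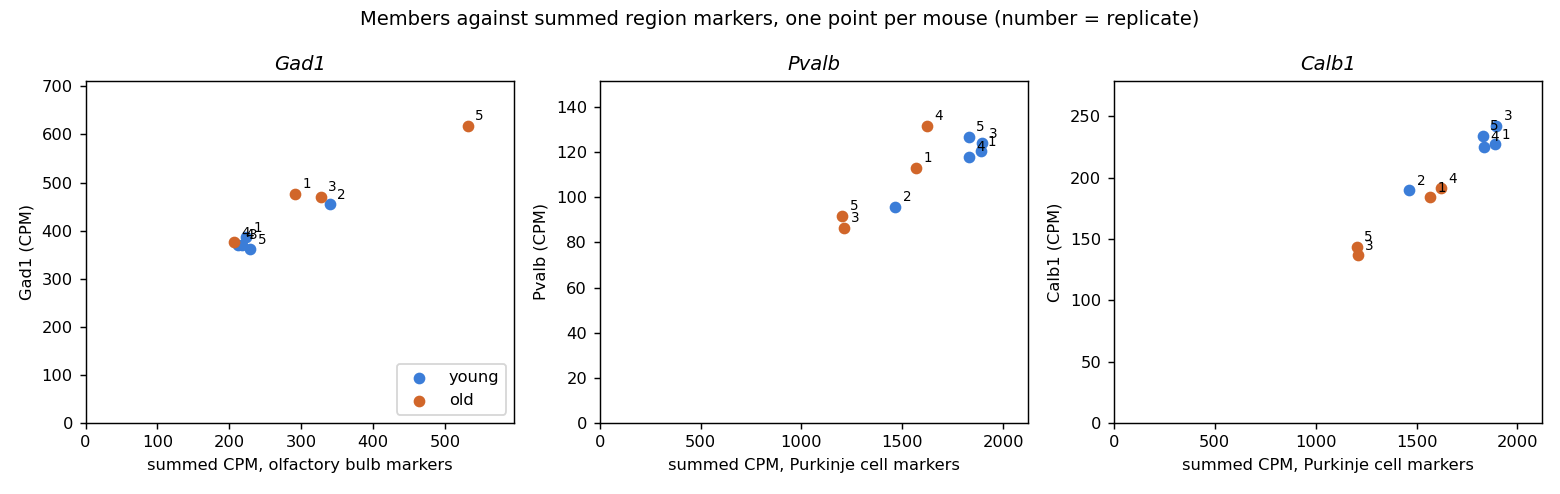
Gad1 against the summed olfactory bulb markers and Pvalb and Calb1 against the summed Purkinje cell markers, all in CPM on linear axes from 0, with 1 point per mouse and its replicate number. Old replicate 5 is highest in both Gad1 (618 CPM) and the bulb markers (532 CPM), and old replicates 3 and 5 are lowest in the Purkinje markers, Pvalb and Calb1.

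**Figure D3:**
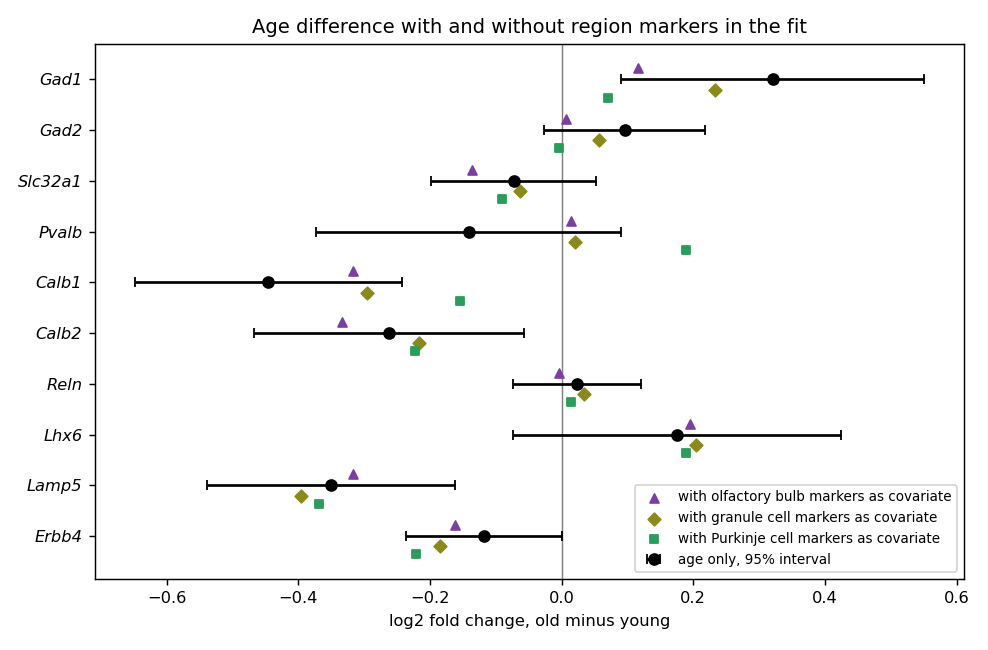
Log2 fold change of each gene, old minus young, from the edgeR fit with age alone (black, with its 95% interval) and from fits that add a region marker list as a covariate (coloured symbols, without intervals). Calb1 moves from -0.45 to -0.15 and Pvalb from -0.14 to 0.19 with the Purkinje cell markers, while Lamp5 stays between -0.40 and -0.32 in all 4 fits.

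The ratio of 2 genes in the same library does not depend on library size, and 6 ratios of counts were compared by exact permutation over 126 splits of the mice, for which the smallest possible p is 0.0079. Gad2 to Gad1 was 0.657 ± 0.0530 (SD, n = 5) in young and 0.568 ± 0.0596 (n = 4) in old mice (two-sided exact permutation p = 0.048, adjusted over the 6 ratios 0.14). Lhx6 to Lamp5 was 0.133 ± 0.0188 in young and 0.196 ± 0.0631 in old mice (exact permutation p = 0.032, adjusted 0.14), with old replicate 1 at 0.287 and the other old mice at 0.149 to 0.190. The old minus young log2 differences were -0.21 and 0.52. Pvalb to Gad1 was 0.305 and 0.230 (adjusted exact permutation p = 0.19), Reln to Erbb4 2.14 and 2.37 (0.19) and Calb2 to Calb1 0.504 and 0.579 (0.42). Slc32a1 to Slc17a7, a vesicular transporter of GABA and one of glutamate, was 0.189 in young and 0.180 in old mice (0.62). Another glutamate transporter, Slc17a6, was not in this ratio and was lower in old mice (log2 fold change -0.40, edgeR adjusted p = 0.0030). None of the 6 ratios passed after adjustment.

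Other genes of inhibitory neurons and their partners were read from the same fit in 6 lists with 88 entries. Of these, 17 passed the test, 4 higher and 13 lower in old mice, beside 6.20% of all genes higher and 4.83% lower. When the libraries were scaled to the pan-neuronal markers, which had a sum of 6885 to 7301 CPM in young mice and of 6600.2 to 6821 CPM in old ones, 15 passed, 11 higher and 4 lower. That scaling moves every gene alike: the median of all genes became 0.085, and 2592 genes were called higher and 263 lower. Of its 10 markers, 4 were themselves called lower and 9 had a negative log2 fold change under TMM scaling.

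Fast-spiking cells owe their short spikes to Kv3 and Kv1 potassium channels and carry perineuronal nets. All 15 genes of this list had a negative log2 fold change (median -0.17), and 5 of 15 passed the test, all lower, beside 4.83% of all genes. The pan-neuronal markers had 4 of 10 called lower (median -0.12), and no difference between these lists was tested. Hapln4, a link protein of perineuronal nets, stood at 139, 134, 145, 146 and 143 CPM in the young and at 116, 117, 127 and 107 CPM in the old mice, without overlap (log2 fold change -0.27, adjusted p = 0.0023). Acan (-0.11, edgeR adjusted p = 0.68) and Hapln1 (-0.17, 0.28), also perineuronal net genes of this list, overlapped between the ages and did not pass. Nefh, the heavy neurofilament of large axons, stood at 199 to 267 CPM in the young and at 123 to 194 CPM in the old mice (-0.53, 0.0076). The Kv1 channel gene Kcna2 (-0.21, 0.012) and the calcium sensor Syt2 (-0.30, 0.045), which was named after its value was seen, were lower too. With the Purkinje markers as a covariate 1 gene of this list passed, and with scaling to pan-neuronal markers 3 did. Nefh and Syt2 are also made by cells of the cerebellum and brainstem.

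Among 22 genes of interneuron subclasses, 3 were higher and 1 lower (median 0.0082), beside 6.20% and 4.83% of all genes. Chodl, which marks long-range somatostatin cells, lay at 2.54 to 3.09 CPM in the young and at 1.43 to 1.59 CPM in the old mice. The ages were far apart, and Chodl had a log2 fold change of -0.90 (SE 0.15, edgeR adjusted p = 0.0019). It was the 1 gene of the 6 lists that passed both the test and the study's fold threshold. The peptide Vip rose from 12.5 ± 1.79 to 16.7 ± 1.64 CPM (0.41, adjusted p = 0.020), the serotonin receptor Htr3a from 3.96 ± 0.465 to 5.68 ± 0.816 CPM (0.52, 0.022) and the chemokine Cxcl14 from 80.9 ± 3.97 to 90.2 ± 4.57 CPM (0.16, 0.039). Vip, Htr3a and Cxcl14 overlapped between the ages, and with the olfactory bulb markers as a covariate the list had 1 call, a lower one. None was called higher without old replicate 1 or in either limma fit of TPM.

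Of 16 interneuron transcription factors, 1 passed the test and was higher in old mice. The median of this list was 0.21, and its count of calls ranged up to 7, all higher, when old replicate 4 was left out. Of 8 genes of GABA breakdown and uptake, Abat, the GABA transaminase, was lower at 349.6 ± 13.4 CPM, against 385 ± 16.4 CPM in the young mice (-0.14, 0.042). The list had no call in 7 of the 9 fits that leave out 1 mouse, all but those without young replicate 4 or old replicate 5, and with pan-neuronal scaling its 1 call was a higher one.

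On the receiving side, 4 of 19 genes of the inhibitory postsynapse were lower and none higher (median -0.07), beside 4.83% of all genes lower. Gabbr1 and Gabbr2, the subunits of the GABA-B receptor, fell by 0.14 and 0.18 on the log2 scale (edgeR adjusted p = 0.013 and 0.036). Lhfpl4, which places GABA-A receptors at synapses, was lower by a log2 fold change of -0.11 (0.044). The count was 2 to 3 with any 1 mouse left out, and with scaling to the pan-neuronal markers it went from 4 to 0 in edgeR. Before that scaling 8 genes had an unadjusted p under 0.05.

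The partners of Erbb4 and Reln were a list of 8 genes, of which 2 were lower, beside 4.83% of all genes. The count was 0 without old replicate 5, and 1 or 2 without any other mouse. Nrg1, a ligand of Erbb4, ranged from 18.9 to 22.4 CPM in the young and from 13.9 to 19.0 CPM in the old mice, overlapping narrowly (log2 fold change -0.31, edgeR adjusted p = 0.032). Vldlr, a receptor of reelin, ranged from 96.9 to 108 CPM in the young and from 88.6 to 95.3 CPM in the old mice, without overlap (-0.17, 0.015). Reln and Erbb4 themselves did not pass, as given above.

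**Figure D4:**
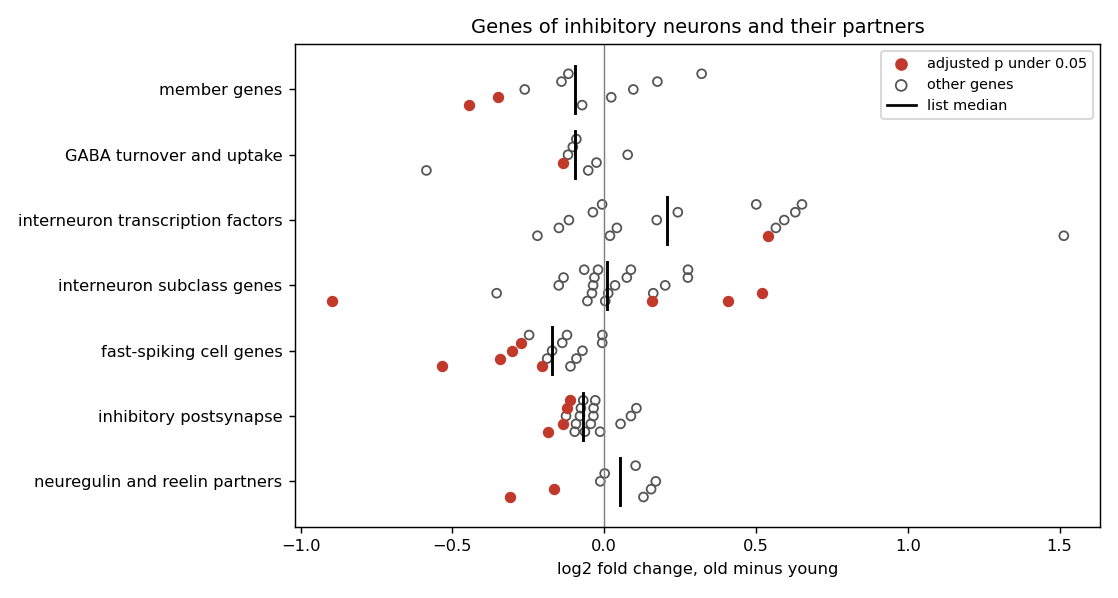
Log2 fold change, old minus young, of the members and of 6 further lists, with 1 circle per gene, filled where the adjusted p was under 0.05, and a bar at each list's median. All 15 fast-spiking genes lie below 0, and the members spread from -0.45 (Calb1) to 0.32 (Gad1).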

How the data were processed

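The values come from the brains of 5 young and 4 old mice. By the paper's methods, reads were trimmed with Trimmomatic, aligned to GRCm38 with STAR and, where uniquely mapped, assigned to exons with featureCounts. The resulting counts were deposited as whole numbers that the authors had not normalized. The deposited normalized counts are a signal, which the authors made by dividing each library's counts by 1 size factor. The deposited TPM values are scaled by the authors to gene length and to a common library sum. Each table held 1 more column, which matched no sample and was not used here. Strandedness is not given in the sources used here.

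Genes were kept with filterByExpr of edgeR 4.0.16 (minimum count 10, minimum total 15), scaled by TMM and compared with the quasi-likelihood test at its default settings, with Benjamini-Hochberg adjustment over 18492 genes. R was 4.3.3, limma 3.58.1 and DESeq2 1.42.0. The test was also run with robust estimation of the spread. The default fit was run first, was then replaced by the robust fit, and was restored as the main test because the design named no robust option, with the results of both known. The F statistic and the log2 fold change gave the standard errors and 95% intervals. Log2 CPM used a prior count of 2. Positions and exon overlaps came from GENCODE M21 (GRCm38). The scripts were tested on simulated data.

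The 10 members and all lists were chosen with earlier results of these data known. Named genes are all members, in each other list up to 4 called genes with the smallest p, and for each member the 3 listed genes of largest r. A few that meet this rule are left out here. Libraries of one age differed by more than sampling noise (chi-square per degree of freedom at least 3.71). The labels give no batch. Alternatives were other size factors, DESeq2, limma on log2 normalized counts and on log2(TPM + 1) or log2(TPM + 0.1), no filter, the replicate number as a block, region markers as covariates, scaling to pan-neuronal markers, the study's fold threshold and each mouse left out. Added after the values were seen were the Purkinje covariate, the fit without young replicate 2 and old replicate 5, and the robust fit.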

Additional observations from a re-analysis of the deposited data

Results flagged for a closer look

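Young replicate 2 stood apart from the other 4 young mice in 3 values. Its Gad1 level was the highest, by a gap of 0.719 of the range of the young mice, with a log2 CPM of 8.83 beside 8.50 to 8.59 in the others. Its Pvalb level was the lowest, by a gap of 0.746 of the range (6.58 beside 6.89 to 6.99). The ratio of Pvalb to Gad1 was lowest in the same mouse, by 0.773 of the range. These were 3 of 32 groups examined, where chance flags about 1 in 20, or 1.6 of them, and the 3 values are not independent, since the ratio is made of the other two. The same mouse had the highest olfactory bulb sum (339 CPM) and the lowest Purkinje sum (1465 CPM) of the young mice, and the part of these in its values was not tested.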

How the results depend on the processing

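Of the 10 members, 2 passed the test, and over 25 other settings the count ranged from 0 to 4. It was 4 with no filter on low counts (1 higher, 3 lower), 1 with limma on log2(TPM + 1) or log2(TPM + 0.1), 1 with the Purkinje covariate (Pvalb, higher), and 0 in the robust fit or with the study's fold threshold. Leaving out 1 mouse gave 1 to 3 (1 without old replicate 1). The count over the 6 other lists, 17, was 5 with either TPM setting, 11 with the granule cell covariate, 6 with the Purkinje covariate, 9 without young replicate 2 and old replicate 5, and 1 with the fold threshold. Without 1 mouse it was 10 to 22, the lowest without young replicate 1 or old replicate 1, and 11 without young replicate 3, young replicate 5 or old replicate 5. In either TPM setting the median over all genes was -0.14 or -0.16, with 594 and 600 genes called in place of 2039.

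Calb1 was negative in all 24 other fits and passed in 22. It did not with the Purkinje covariate (-0.15, adjusted p = 0.052) or the robust fit (-0.45, 0.055). Lamp5 was negative in all 24 and passed in 18. It did not with log2(TPM + 1) (-0.51, 0.051), log2(TPM + 0.1) (-0.51, 0.055), the bulb covariate (-0.32, 0.056), the Purkinje covariate (-0.37, 0.085) or the robust fit (-0.35, 0.070), and without 1 mouse it ranged from -0.39 to -0.27. Gad1 passed with no filter (0.31, 0.0049) and pan-neuronal scaling (0.40, 0.018), and without 1 mouse ranged from 0.18 to 0.43. Calb2 passed with no filter (-0.27, 0.0093), the bulb covariate (-0.33, 0.046) and without young replicate 2 and old replicate 5 (-0.34, 0.049), and without 1 mouse ranged from -0.36 to -0.17. Erbb4 passed with the granule cell covariate (-0.18, 0.038).

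Values that changed sign were Gad2 with log2(TPM + 1) and log2(TPM + 0.1) (-0.073 in both, which is 0.07 and 0.09 above the median of all genes) and with the Purkinje covariate (-0.0040), Slc32a1 with pan-neuronal scaling (0.0094), and Pvalb with the bulb (0.015), granule cell (0.021) and Purkinje (0.19) covariates. Reln changed sign with TPM (-0.14 in both, 0.0062 and 0.020 above the median), the bulb covariate (-0.0032), without young replicate 2 and old replicate 5 (-0.022) and without old replicate 5 (-0.018, within -0.018 to 0.050 over the mice left out). The Slc32a1 to Slc17a7 ratio was 0.0067 without young replicate 5 and -0.12 to 0.01 over the mice left out. The cause was not tested in any of these.

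With the replicate number as a block, 3 members passed, Gad1 (0.36, 0.039) with the other two, and 1687 genes in all. Mice of the same number deviated together in 1 of 4 pairs (correlations -0.12 to 0.17), and 1 old mouse correlated best with its own number, so the samples share only a number.

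Lhx6, with 170 to 363 counts per library, had the least depth of the members, and an interval of -0.07 to 0.42.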
